A study of Rattus norvegicus with 6 samples.

Results

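The 9 homeostatic and pan-microglia genes, P2ry12, P2ry13, Tmem119, Cx3cr1, Slc2a5, Siglec5, Aif1, Csf1r and Itgam, were followed through 6 RNA-seq libraries of rat (Rattus norvegicus) cultures labelled as primary microglia. They were taken by symbol from the deposited count table, and all 9 of 9 were among its 16876 gene symbols. The tested cultures were exposed for 24 h to PSNPs, the polystyrene nanoplastics of the series title (3 libraries), and the comparison cultures for 24 h to IR-813, a label that belongs to a near-infrared dye (3 libraries). Both groups were grown in serum-containing medium as co-cultures, from which microglia were shaken loose; the labels give no strain, age, genotype or dose. The deposited tables call the IR-813 columns con. No untreated library was analysed here, so higher and lower mean with PSNPs relative to IR-813, and which exposure moved a gene cannot be told apart. The study looked for what lies behind the effects of PSNPs on behaviour and neurons.

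Microglia are the resident macrophages of the brain, and they depend on signalling through the CSF1 receptor for survival. In the undisturbed brain they carry a surface repertoire that senses nucleotides (P2ry12, P2ry13), the neuronal chemokine fractalkine (Cx3cr1) and sialic acids (Siglec genes), together with markers such as Tmem119 and the fructose transporter Slc2a5. This repertoire is known to be lost quickly in culture and under activation, whereas Csf1r, Itgam (the CD11b chain of complement receptor 3) and Aif1 (the actin-bundling protein IBA1) are shared with macrophages in general.

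With PSNPs, 8 of the 9 genes fell and none rose, and the sizes of the falls were graded. Slc2a5 and P2ry13 were lower by 3.60 ± 0.38 and 3.46 ± 0.31 on the log2 scale (estimate ± SE), and Siglec5 and P2ry12 by 2.45 ± 0.26 and 2.30 ± 0.22. Cx3cr1 and Aif1 were lower by 1.54 ± 0.25 and 1.24 ± 0.21. Tmem119 and Csf1r were lower by 0.74 ± 0.18 and 0.54 ± 0.15, and Itgam, at −0.29 ± 0.20, did not pass the test. These are edgeR quasi-likelihood fits of counts with TMM scaling (which equalises the bulk of genes between libraries), and a gene was called at a Benjamini-Hochberg adjusted p under 0.05 over 11679 tested genes. Of all tested genes, 20.1% were called lower, and 41% were called in either direction. The share among the 9 was higher, but these genes were chosen with earlier results of these data known. That difference from the background is therefore a description and no test. The CPM of the groups did not overlap for 8 of the 9 genes, all 8 lower with PSNPs, against 61.4% of all tested genes in either direction and 31.4% lower with PSNPs. P2ry13 and Slc2a5 passed the filter on low counts through the IR-813 libraries and not through all PSNPs libraries. Of the other 7 genes, which were over the filter in every PSNPs library, 6 were called lower. In bulk RNA, fewer microglia and less of a transcript per microglial cell cannot be told apart.

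Libraries held between 19166605 and 22553507 counts, and levels are given as CPM, counts scaled to equal depth after TMM. PSNPs replicate 3 stood apart, with a correlation of log CPM across genes of at most 0.974 with the other PSNPs libraries, against 0.995 between those. Without it the same number of the 9 genes, 8, was called lower. Over all genes 2351 were lower and 2439 higher, or 2852 lower and 1943 higher with library size only. No 2 libraries of a group agreed within sampling noise.

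The cultures are labelled as microglia, but markers of other brain cells were present in every library and differed between the groups, and their part in the results was not tested. As background for the counts below, 20.1% of all tested genes were called lower and 20.9% higher. Summed over 17 astrocyte markers, the level was 10277 to 11687 CPM with PSNPs and 8391 to 10813 CPM with IR-813, with 7 of 16 tested markers higher and 4 lower. For 16 oligodendrocyte markers it was 4656 to 5355 CPM with PSNPs and 7649 to 8864 CPM with IR-813 (15 lower, 1 higher), and for 18 neuron markers 209 to 248 CPM with PSNPs and 613 to 634 CPM with IR-813 (12 of 16 lower). The 21 pan-myeloid genes summed to 1208 to 1631 CPM with PSNPs and 1584 to 2129 CPM with IR-813. Border-associated macrophage markers, which share Siglec1 with the lectin family, summed to 38.3 to 50.5 CPM with PSNPs and 126 to 164 CPM with IR-813, with 5 of 6 tested markers lower and Cd163 at 0 in every library. Mrc1, the mannose receptor gene, fell by 1.82 ± 0.24 and Pf4 by 3.09 ± 0.39. Fibroblast, mural and endothelial markers summed to 96.0 to 116 CPM with PSNPs and 106 to 174 CPM with IR-813 (2 higher and 3 lower of 11). Markers of infiltrating leukocytes summed to at most 0.265 CPM with PSNPs and 0.373 CPM with IR-813, and 9 of the 14 in the table, among them Cd3e, S100a9 and Ms4a1, were at 0 throughout.

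**Figure D1:**
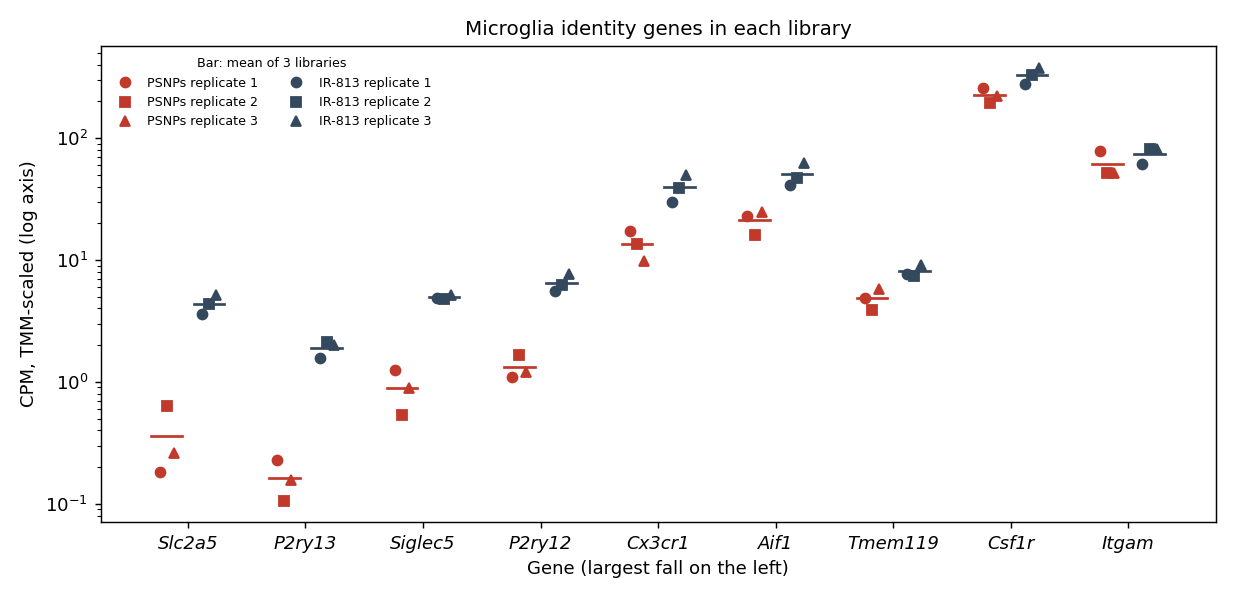
Level of each gene in each library, in CPM (counts scaled to equal depth) on TMM-scaled library sizes (log axis), with PSNPs to the left of IR-813 and a bar at the mean of 3 libraries. The groups are apart for all genes but Itgam. CPM is not per transcript length, so heights compare libraries within a gene.

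The ADP receptor genes P2ry12, whose product steers microglial processes to sites of nucleotide release, and P2ry13 were at low levels in all libraries. P2ry12 had 24, 31 and 23 counts with PSNPs, against 124, 133 and 166 with IR-813, or 1.10, 1.65 and 1.20 CPM with PSNPs, against 5.55, 6.19 and 7.68 CPM with IR-813. P2ry13 had 5, 2 and 3 counts with PSNPs, against 35, 46 and 43 with IR-813. Every PSNPs library lay below every IR-813 library for both genes. The edgeR adjusted p was 4.44e-04 for P2ry12 and 3.68e-04 for P2ry13. Because P2ry13 reached so few counts, its ratio was also taken from the summed counts, 10 with PSNPs and 124 with IR-813, which gave 0.0883 with an exact 95% interval from 0.0413 to 0.168. That interval covers counting error only.

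In the RefSeq annotation both receptor genes lie inside the span of Med12l, a Mediator subunit gene, with Igsf10 as the neighbour of P2ry12. The counting is not stated to use strand, so reads of overlapping genes could not be separated. Med12l was at 3.45, 5.20 and 1.10 CPM with PSNPs, against 5.91, 6.38 and 6.15 CPM with IR-813, and it was not called (−0.92 ± 0.45, edgeR adjusted p 0.139). Igsf10, an immunoglobulin superfamily gene, fell by 1.20 ± 0.34. Of 8 tested P2Y receptors and genes of this cluster, P2ry12 and P2ry13 included, 4 fell and none rose. Over all tested genes 20.1% were called lower and 20.9% higher. Among the other receptors, P2ry2 (a receptor for ATP and UTP) fell by 1.00 ± 0.32, while P2ry6 (0.17 ± 0.19), the UDP receptor that drives microglial phagocytosis, P2ry1 (0.56 ± 0.24) and P2ry4 (−1.10 ± 0.50) did not pass. The lysophosphatidylserine receptor gene Gpr34 fell by 1.08 ± 0.19.

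Cx3cr1, the fractalkine receptor gene, was at 17.4, 13.6 and 9.86 CPM with PSNPs, against 30.2, 39.1 and 49.3 CPM with IR-813. The groups did not overlap, and replicate 3 held both the lowest PSNPs and the highest IR-813 level. The edgeR adjusted p was 0.00361. Its ligand gene Cx3cl1 went the other way, with 145 ± 2.40 CPM with PSNPs and 56.3 ± 2.89 CPM with IR-813 (SD, n = 3 each), a rise of 1.36 ± 0.08 on the log2 scale. The receptor and the ligand of this pair therefore moved in opposite directions in the same libraries.

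Slc2a5, which encodes the fructose transporter GLUT5 and in brain marks microglia, had 4, 12 and 5 counts with PSNPs, against 80, 93 and 112 with IR-813. PSNPs replicate 2 stood above the other PSNPs libraries but far below the IR-813 libraries. The summed counts, 21 with PSNPs and 285 with IR-813, gave a ratio of 0.0807 with an exact 95% interval from 0.0492 to 0.126 (counting error only), and the edgeR adjusted p was 6.24e-04. The log2 fold change was −4.27 without PSNPs replicate 2 and −3.27 without PSNPs replicate 1. Of 9 tested genes of hexose transport and fructose use, Slc2a5 included, 2 fell and 4 rose, against 20.1% lower and 20.9% higher of all tested genes. Slc2a1, the widely expressed glucose carrier, fell by 0.46 ± 0.09, while Slc2a13, a myo-inositol carrier, and Slc2a6 rose by 1.78 ± 0.20 and 0.79 ± 0.12. Khk, which phosphorylates fructose, rose by 1.33 ± 0.18.

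Siglec5, a sialic acid-binding lectin gene, had 27, 10 and 17 counts with PSNPs, against 109, 103 and 111 with IR-813. The IR-813 libraries were within 8 counts of each other and the PSNPs libraries lay well below them (edgeR adjusted p 6.91e-04). Of 5 tested genes of the lectin family, Siglec5 included, 4 fell, against 20.1% of all tested genes called lower. Siglec1, a gene of border-associated and activated macrophages, was at 1.75 ± 0.537 CPM with PSNPs and 17.6 ± 1.45 CPM with IR-813. Cd22, an inhibitory receptor gene best known from B cells, had 1, 2 and 0 counts with PSNPs, against 58, 68 and 55 with IR-813. It passed the filter on low counts through the IR-813 libraries only. Mag, the family member of myelin, fell by 0.93 ± 0.11, and Siglec15 did not pass (0.29 ± 0.19). Lectin genes of this family resemble one another, and their values are uncertain where reads could belong to several of them.

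Tmem119, a transmembrane protein gene used to tell microglia from other macrophages, was at 4.92, 3.87 and 5.79 CPM with PSNPs, against 7.74, 7.41 and 9.16 CPM with IR-813. The groups did not overlap, but the gap between them was smaller than for the genes above. The edgeR adjusted p was 0.0176. Leaving out IR-813 replicate 1 gave 0.0527 and leaving out IR-813 replicate 3 gave 0.0639, and 12 alternative settings lay between 0.00279 and 0.0639. Its RefSeq neighbours were Selplg, a selectin ligand gene that was not called (0.48 ± 0.23), and Iscu, an iron-sulfur scaffold gene that rose by 0.70 ± 0.14.

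Among the genes shared with other macrophages, Aif1 was at 23, 16.1 and 24.9 CPM with PSNPs, against 41.5, 47.2 and 62.4 CPM with IR-813. All PSNPs libraries were below all IR-813 libraries, and the edgeR adjusted p was 0.00431. Its paralog Aif1l, which is expressed outside the myeloid lineage, rose by 0.78 ± 0.10. Csf1r was the most counted of the 9 genes, at 258, 195 and 220 CPM with PSNPs, against 277, 326 and 379 CPM with IR-813. The highest PSNPs library and the lowest IR-813 library were close to each other (edgeR adjusted p 0.0249). The call was lost when PSNPs replicate 2 (0.0662), IR-813 replicate 2 (0.0780) or IR-813 replicate 3 (0.0810) was left out, the adjusted p of 12 alternative settings lying between 0.00759 and 0.0810. Of the ligands of this receptor, Csf1 stood at 345 ± 33.7 CPM with PSNPs and 347 ± 12.3 CPM with IR-813, and Il34 at 11.3 ± 2.30 CPM with PSNPs and 15.3 ± 2.10 CPM with IR-813, and neither was called.

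Itgam was at 78.5, 52.2 and 51.9 CPM with PSNPs, against 61.6, 80.9 and 81.6 CPM with IR-813. PSNPs replicate 1 and IR-813 replicate 1 each sat apart from the other libraries of their group, and the groups overlapped. The log2 fold change had a 95% interval from −0.76 to 0.17, with an edgeR adjusted p of 0.261. Leaving out PSNPs replicate 1 gave −0.52 with an edgeR adjusted p of 0.0456, and 12 alternative settings lay between 0.0456 and 0.495. Its partner chain Itgb2 fell by 0.62 ± 0.15. Itgal, the CD11a chain that also pairs with Itgb2, was at 18.1 ± 1.81 CPM with PSNPs and 72.5 ± 11 CPM with IR-813, a fall of 2.00 ± 0.14. The complement gene C3, whose fragments bind the Itgam receptor, rose by 1.21 ± 0.27.

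To see how the genes stood within the myeloid RNA of these mixed cultures, the same counts were rescaled so that the median of 21 pan-myeloid genes, none of them among the 9, was equal in all libraries. The list held leukocyte genes such as Ptprc, Laptm5, Tyrobp and Spi1. On the TMM scale 7 of these 21 genes fell and 1 rose, against 20.1% lower and 20.9% higher of all tested genes. Their median log2 fold change was −0.41, against −0.01 for all tested genes. The gene that rose was Cybb, a subunit of the phagocyte oxidase (1.27 ± 0.37), and the falls of smallest p were those of Inpp5d (−0.93 ± 0.18), Ncf1 (−0.91 ± 0.18) and Vav1 (−0.62 ± 0.15), genes of immune signalling and the oxidase. The count of pan-myeloid genes that fell was 2 without IR-813 replicate 2 or IR-813 replicate 3, and 12 without PSNPs replicate 3. Cybb lost its call when any library but PSNPs replicate 3 was left out. Under this rescaling the median over all genes moved to 0.39, and 7.42% of all genes were called lower, 29.6% higher and 37% in either direction.

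Relative to the pan-myeloid genes, 6 of the 9 genes were still lower with PSNPs. Slc2a5 was lower by 3.17 ± 0.41, P2ry13 by 3.09 ± 0.45, Siglec5 by 2.10 ± 0.33, P2ry12 by 1.87 ± 0.32, Cx3cr1 by 1.10 ± 0.27 and Aif1 by 0.85 ± 0.25 (log2, estimate ± SE). Leaving out PSNPs replicate 2 gave −4.02 for Slc2a5, and leaving out PSNPs replicate 1 gave −2.75. The edgeR adjusted p of the 6 genes lay between 6.72e-07 for Slc2a5 and 0.00863 for Aif1. For Aif1, leaving out IR-813 replicate 2 gave 0.0505 and leaving out IR-813 replicate 3 gave 0.0585, and 8 alternative settings lay between 0.00238 and 0.0585. The adjusted p of this fit cannot be compared with those of the TMM fit. The rescaled fit gave each test more degrees of freedom from the same libraries. For Slc2a5 the TMM fit had the larger effect and the smaller SE, yet the larger edgeR adjusted p (6.24e-04). The SE also leaves out the uncertainty of the pan-myeloid size factors. The other genes were not called on this scale. Tmem119 was at −0.35 (95% interval −0.91 to 0.20), Csf1r at −0.14 (−0.63 to 0.35) and Itgam at 0.10 (−0.41 to 0.62), so the sign for Itgam differed between the scalings. An interval that includes 0 does not show that a gene kept its level.

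**Figure D2:**
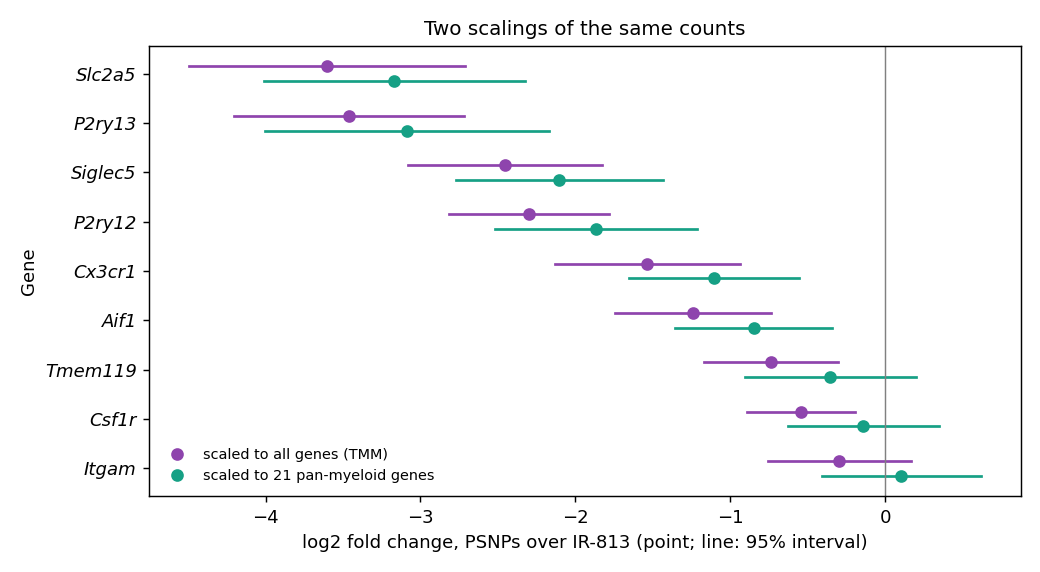
Log2 fold change of each gene, PSNPs over IR-813, with its 95% interval, from counts scaled to all genes (upper point of each pair) and to 21 pan-myeloid genes (lower point). The intervals of Slc2a5, P2ry13, Siglec5, P2ry12, Cx3cr1 and Aif1 lie below 0 on both scales, while those of Tmem119 and Csf1r reach 0 only after the rescaling and that of Itgam includes 0 on both.

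The genes were also compared without any scaling factor, as counts per 100 Csf1r counts of the same library. P2ry12 had 0.427, 0.843 and 0.545 counts per 100 Csf1r counts with PSNPs, against 2.01, 1.90 and 2.03 with IR-813. Slc2a5 had 0.0711, 0.326 and 0.119 with PSNPs, against 1.29, 1.33 and 1.37 with IR-813. Cx3cr1 had 6.72, 6.96 and 4.48 with PSNPs, against 10.9, 12 and 13 with IR-813. For these genes all PSNPs libraries lay below all IR-813 libraries. How many of all genes would separate the groups as a ratio to Csf1r was not computed. In CPM, 61.4% of tested genes separated them in either direction and 31.4% were lower with PSNPs. Tmem119 had 1.90, 1.99 and 2.63 counts per 100 Csf1r counts with PSNPs, against 2.80, 2.27 and 2.42 with IR-813, and its groups overlapped. Itgam, with 30.4, 26.7 and 23.6 with PSNPs, against 22.3, 24.8 and 21.6 with IR-813, also overlapped. An exact permutation test of 3 against 3 libraries cannot give a p below 0.1, so none was made of these ratios.

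**Figure D3:**
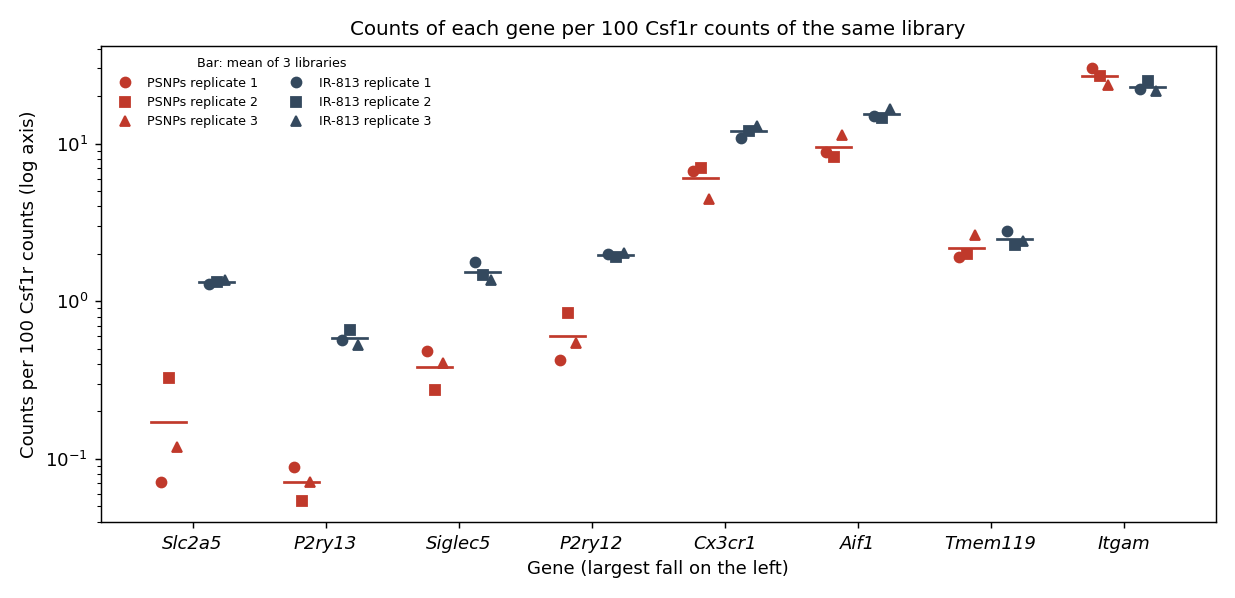
Counts of each gene per 100 Csf1r counts of the same library (log axis), PSNPs left of IR-813, with a bar at the mean of 3 libraries. The PSNPs libraries lie below the IR-813 libraries for Slc2a5, P2ry13, Siglec5, P2ry12, Cx3cr1 and Aif1, and the groups overlap for Tmem119 and Itgam. The share of all genes that separate in this way was not computed.

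Together the 9 genes took between 0.0279% and 0.0371% of all counts with PSNPs and between 0.0442% and 0.0624% with IR-813. Csf1r alone made up 67.1% to 69.8% of their summed counts with PSNPs and 62.9% to 63.9% with IR-813. For levels between genes, the deposited log2 values were unlogged after removal of a pseudocount of 1. Within a gene these were nearly a constant multiple of CPM, and the inverse of that multiple ran from 0.495 for Aif1 to 3.68 for Csf1r, which would be kilobases if the authors divided by transcript length. The labels do not state the scaling. On this scale, with SD over 3 libraries, the order with PSNPs was Csf1r (level 61.3 ± 8.47), Aif1 (43.7 ± 10.5), Itgam (17.8 ± 4.26), Cx3cr1 (11.4 ± 2.94), Tmem119 (2.36 ± 0.508), P2ry12 (1.18 ± 0.251), Siglec5 (0.371 ± 0.147), P2ry13 (0.191 ± 0.0707) and Slc2a5 (0.174 ± 0.115). With IR-813 the order was Aif1 (level 102 ± 22.0), Csf1r (88.9 ± 13.7), Cx3cr1 (33.1 ± 8.00), Itgam (21.8 ± 3.29), P2ry12 (5.80 ± 0.977), Tmem119 (3.90 ± 0.445), P2ry13 (2.20 ± 0.347), Slc2a5 (2.10 ± 0.383) and Siglec5 (2.06 ± 0.0710). Csf1r stood above Aif1, Itgam above Cx3cr1 and Tmem119 above P2ry12 with PSNPs, and each pair was the other way round with IR-813. Each of these orders held in every library of its group, although the mean ± SD ranges of Csf1r and Aif1 and of Itgam and Cx3cr1 met in both groups. Siglec5 was above P2ry13 in every PSNPs library. The order of P2ry13 and Slc2a5 varied between libraries in both groups, and that of Slc2a5 and Siglec5 varied with IR-813.

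Other genes of microglial identity showed both directions. Of 19 tested homeostatic microglia genes outside the 9, 9 fell and 1 rose, with a median log2 fold change of −0.20. The shares over all tested genes were 20.1% lower and 20.9% higher. The falls of smallest p were those of Csf3r, a cytokine receptor gene (5.21 ± 0.152 CPM with PSNPs and 20.0 ± 1.76 CPM with IR-813), and Slco2b1, an organic anion carrier gene (12.4 ± 1.15 CPM with PSNPs and 55.0 ± 12.7 CPM with IR-813). Gal3st4, a sulfotransferase gene, rose by 1.12 ± 0.14. Trem2 (0.07 ± 0.22), Olfml3 (−0.11 ± 0.15) and P2ry6 were not called. Some genes of this list, such as Cst3, are also known from astrocytes. Relative to the pan-myeloid genes, 6 genes of this list were lower and 2 higher, with a median of 0.21. On that scale 7.42% of all tested genes were lower and 29.6% higher, with a median of 0.39.

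Of 11 tested transcription factor genes of microglia and macrophages, 5 fell and none rose, with a median of −0.77. Runx1, a factor of blood and microglial lineages, fell by 1.41 ± 0.16, the macrophage factor gene Maf by 1.36 ± 0.18, and Irf8, needed for microglial development, by 0.84 ± 0.20. Spi1, which encodes the lineage factor PU.1, was not called (−0.22 ± 0.19). Sall1, a microglial identity factor that glial progenitors also express, was not called either (0.15 ± 0.13). By DESeq2, and by edgeR without PSNPs replicate 2 or 3, 1 gene of this list was called higher. Of 12 tested genes of the TGF-beta pathway, which maintains the homeostatic state, 3 fell and 1 rose, with a median of −0.27. Since 20.1% of all tested genes were called lower and 20.9% higher, the number of TGF-beta genes that fell was near the background. Smad7, a feedback inhibitor, fell by 0.93 ± 0.14, Tgfb2 by 0.69 ± 0.16 and Nrros, which presents TGF-beta 1 on microglia, by 0.47 ± 0.15, while Tgfb1 rose by 0.56 ± 0.18. The count of TGF-beta genes that fell was 1 without IR-813 replicate 2, and Tgfb1 lost its call with library size only and without IR-813 replicate 1, IR-813 replicate 2 or PSNPs replicate 1.

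Of 13 tested ligands, partner chains and nucleotide-handling genes, 3 fell and 4 rose, with a median of −0.45. The shares over all tested genes were 20.1% lower and 20.9% higher, so the number that fell was near the background here too. Entpd1, the ectonucleotidase CD39 that microglia use to break down ATP and ADP, was at 4.52 ± 0.935 CPM with PSNPs and 15.0 ± 2.40 CPM with IR-813. Nt5e, the CD73 enzyme that makes adenosine, fell by 1.10 ± 0.25. Gnai2, a G protein subunit gene that P2ry12 signals through, rose by 0.64 ± 0.10. Kcnk13, a potassium channel gene of microglia, stood at −0.64 ± 0.22 and was not called. Without PSNPs replicate 3, 6 genes of this list fell.

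**Figure D4:**
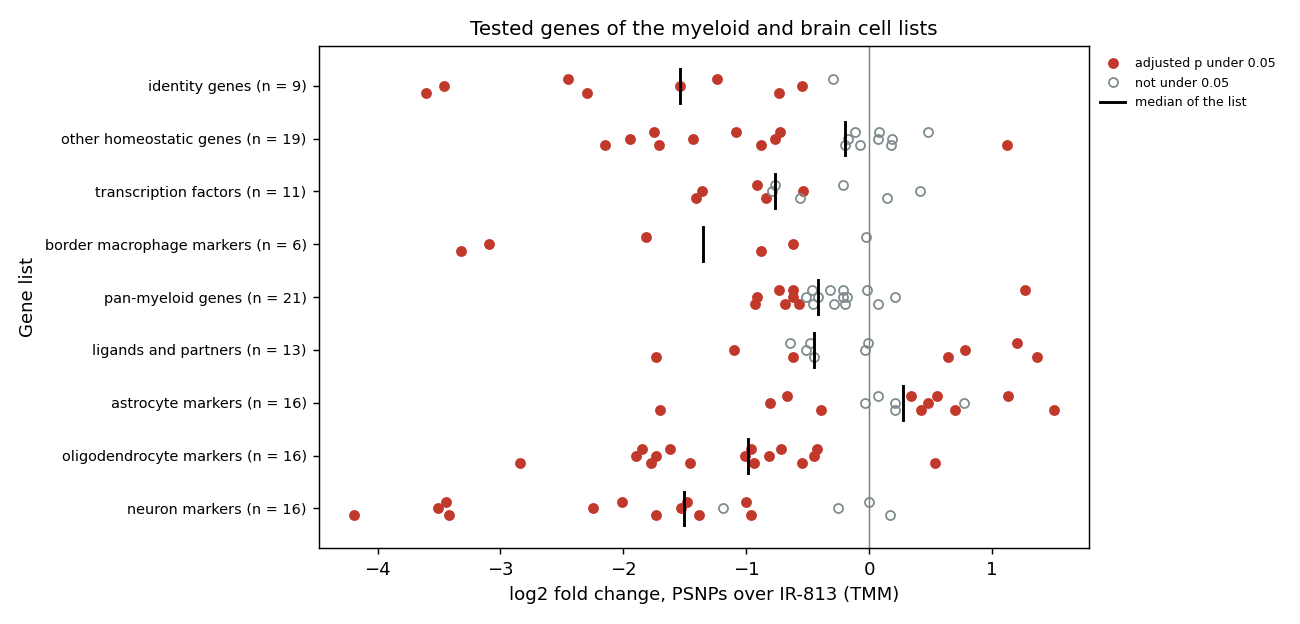
Log2 fold change, PSNPs over IR-813, of every tested gene in the 9 identity genes and in 8 other gene lists, with called genes filled and the median of each list as a vertical bar. The identity genes have a median of −1.54, the pan-myeloid genes of −0.41 and the astrocyte markers of 0.27. A fall of this size is not particular to the identity genes. The neuron markers have a median of −1.51, the border macrophage markers of −1.35 and the oligodendrocyte markers of −0.99.

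Over the 6 libraries, the genes nearest to the mean centred log2 CPM profile of the 9 included Lingo1, an inhibitor of axon growth and myelination (root-mean-square distance 0.0743 log2 units), Aebp1, a secreted matrix-associated protein gene (0.106), Gpr85, an orphan receptor gene (0.113), and Susd4, a complement regulator gene (0.118), out of 9704 candidates at a mean of at least 5 CPM. The distances of the 9 genes themselves ran from 0.226 for Cx3cr1 to 0.971 for Slc2a5. The distance counts the size of a change as well as its shape, and the named genes were picked for the smallest values among all candidates.

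Promoter sequences are shown because these genes share a lineage whose factor PU.1 binds purine-rich sites. RefSeq (build GRCr8) gave a window of 250 bases before to 50 bases after a gene start for 6 of the 9 genes, with none for P2ry12, Tmem119 and Aif1. The PU.1 core GAGGAA was searched on both strands. It occurred in 27.6% of 33469 rat promoter windows of the same length. It was found 2 times each in the windows of Csf1r and Itgam, 1 time in that of Siglec5, and not in those of P2ry13, Slc2a5 and Cx3cr1. Whether such matches relate to how far a gene fell was not tested. The windows of the pair with the smallest and the pair with the largest differences are given 5′ to 3′ on the gene's strand, in lower case with the PU.1 core of either strand in capitals.
Slc2a5 promoter: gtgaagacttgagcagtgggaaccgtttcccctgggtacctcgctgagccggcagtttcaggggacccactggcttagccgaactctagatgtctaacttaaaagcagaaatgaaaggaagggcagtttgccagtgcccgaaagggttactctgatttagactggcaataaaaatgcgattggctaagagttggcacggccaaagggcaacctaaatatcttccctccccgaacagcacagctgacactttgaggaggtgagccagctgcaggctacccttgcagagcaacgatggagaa
P2ry13 promoter: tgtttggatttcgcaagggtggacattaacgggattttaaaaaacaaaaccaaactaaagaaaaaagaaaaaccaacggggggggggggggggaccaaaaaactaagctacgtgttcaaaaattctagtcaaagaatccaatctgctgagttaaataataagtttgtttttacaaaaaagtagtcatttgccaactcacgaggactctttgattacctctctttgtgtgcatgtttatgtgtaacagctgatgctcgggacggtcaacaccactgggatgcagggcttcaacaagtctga
Csf1r promoter: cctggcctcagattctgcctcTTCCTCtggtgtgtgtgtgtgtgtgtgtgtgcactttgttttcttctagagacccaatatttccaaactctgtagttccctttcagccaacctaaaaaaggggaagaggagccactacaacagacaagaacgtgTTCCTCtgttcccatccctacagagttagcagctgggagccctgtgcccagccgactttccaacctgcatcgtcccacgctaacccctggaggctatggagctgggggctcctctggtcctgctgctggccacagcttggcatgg
Itgam promoter: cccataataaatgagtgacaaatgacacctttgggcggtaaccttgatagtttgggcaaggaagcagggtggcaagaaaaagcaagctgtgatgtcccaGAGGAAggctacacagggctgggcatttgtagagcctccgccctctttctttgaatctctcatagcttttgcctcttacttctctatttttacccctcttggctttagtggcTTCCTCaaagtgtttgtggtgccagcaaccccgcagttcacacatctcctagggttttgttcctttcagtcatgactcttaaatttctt
The windows lie at chr5:165865929-165866228, plus strand, for Slc2a5, chr2:145622735-145623034, minus strand, for P2ry13, chr18:56834129-56834428, plus strand, for Csf1r, and chr1:192089342-192089641, plus strand, for Itgam. GC content was 52.0% for Slc2a5, 40.7% for P2ry13, 54.3% for Csf1r and 46.3% for Itgam. Of the other motifs searched on both strands, the AP-1 site TGANTCA, present in 7.33% of windows, was in none of the 6. The SMAD core CAGAC, in 50.1% of windows, was in those of P2ry13, Cx3cr1 and Csf1r. The MAF core TGCTGA, in 18.4%, was in that of P2ry13, and the RUNX core TGTGGT, in 17.3%, in those of Cx3cr1, Siglec5 and Itgam. A match describes letters in a short window and is no measured binding, and a window without one says only that these letters are not there.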

How the data were processed

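RNA was measured in 6 libraries, 3 with PSNPs and 3 with IR-813, grouped by sample title. The authors deposited raw read counts per gene symbol, used here for all tests, and, for each library, log2 values of a scaling that the labels leave unstated. Per the labels' protocols, polyadenylated RNA was selected; bcl2fastq and the build mRatBN7.2 come from the submitters' processing notes. Aligner, counter, strand setting: not given in the sources used here. Columns named con or NPS were joined to samples through the per-library files.

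Counts were filtered with filterByExpr (11679 of 16876 symbols), scaled by TMM and fitted by the quasi-likelihood method of edgeR 4.0.16 (R 4.3.3; glmQLFit, glmQLFTest, treatment only), with Benjamini-Hochberg adjustment over all tested genes and a threshold of 0.05. A standard error is the log2 fold change divided by the square root of F. A second fit used size factors from the median log ratio of 21 pan-myeloid genes (0.5 added to counts). Alternatives were RLE or library size scaling, no filter, a replicate block, DESeq2 1.42.0, limma 3.58.1 on the log2 values, summed pan-myeloid counts, and leaving out each library. The edgeR script was tested on simulated data. The labels do not tie replicates to separate cultures or animals; the p-values reflect only how far these samples differed, possibly for technical reasons, and intervals on counts cover counting error only.

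The genes and lists were chosen with earlier results of these data known. Named genes are the 9 genes, up to 4 called genes of smallest p per list, partners, ligands and paralogs of the 9, their RefSeq neighbours, and the 5 genes nearest in profile, some of which are not reported here; Trem2, Olfml3, Kcnk13, Cst3, Spi1, Sall1 and the examples of pan-myeloid and leukocyte markers were named after their values were seen. Gene neighbours come from RefSeq (GRCr8), another build, used for names and order only.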

Additional observations from a re-analysis of the deposited data

How the results depend on the processing

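Over 12 alternatives between 6 of the 9 genes (IR-813 replicate 3 left out) and all 9 (PSNPs replicate 1 left out) were called lower and 0 higher, and all 9 kept a negative log2 fold change; over 8 alternatives of the pan-myeloid fit 5 or 6 were called lower. In that fit Itgam reversed to −0.017 without PSNPs replicate 1, the leave-one-out values running up to 0.245 without PSNPs replicate 3; the cause was not tested. The counts over all genes ran from 1473 to 3478 lower and from 1339 to 3591 higher when 1 library was left out (lowest with IR-813 replicate 2 out, highest with PSNPs replicate 3 out; 1416 higher with IR-813 replicate 1 out). On the deposited log2 values, where the pseudocount of 1 shrinks low genes, P2ry12 was at −1.63, P2ry13 at −1.42, Slc2a5 at −1.40 and Siglec5 at −1.16. Of the lists, the pan-myeloid count of lower genes ran from 2 to 12, that of other homeostatic genes from 7 to 10 and that of transcription factors from 4 to 7, and Cybb was not called under the replicate block. The replicate numbers did not pair the samples (residual correlations −0.00585, 0.0145 and 0.121, and only replicate 3 of PSNPs correlated best with its own number). With the replicate block, 7 of the 9 genes were lower, Csf1r being at −0.54 with an edgeR adjusted p of 0.0508, and 2124 genes were lower and 2035 higher in all. Depth limits P2ry13 and Slc2a5 most, with 2 to 12 counts in PSNPs libraries.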
